A study of Mus musculus with 6 samples.

Results

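Transcripts of 38 enzymes and carriers of mitochondrial carbon metabolism, of 30733 genes in all, were followed in mouse bone marrow cells labelled as hematopoietic stem cells that carried much or little MHC class II on their surface. The genes were chosen by name: 14 of the TCA cycle, 7 that bring pyruvate into it and 17 of fatty acid oxidation. Each gene was found as 1 row in the deposited tables. The cells were sorted from wild-type (WT) mice aged 12 months, which gave 3 libraries of the high fraction (MHCII-hi) and 3 of the low one (MHCII-lo). No treatment is named, and the fractions share genotype and age. The labels name neither the gates of the sort nor the mice behind each library or any pooling, so p-values describe the spread among these libraries alone, and that spread may be technical.

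Pyruvate from glycolysis enters mitochondria through the pyruvate carrier and is turned into acetyl-CoA by the pyruvate dehydrogenase complex. Fatty acids enter as carnitine esters and are shortened by beta-oxidation, which also yields acetyl-CoA. The TCA cycle oxidises that acetyl group and hands electrons to the respiratory chain. Quiescent hematopoietic stem cells are known for low mitochondrial activity, and fatty acid oxidation has been linked to their maintenance in mice.

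The deposited values were taken as FPKM, fragments of a gene relative to its length and to the fragments mapped in the library, a scale on which levels of different genes can be set side by side. They summed to 327364 to 346651 per library, and the number of reads is unknown. Of 10 genes that define stem cells, 6 (Procr, Slamf1, Mecom, Fgd5, Hoxb5 and Ctnnal1) were under 1 FPKM in all 6 libraries. Kit stood at 14.3 ± 0.175 FPKM (SD, n = 3) in the low fraction and at 13.9 ± 0.318 in the high one. The 28 neutrophil markers with a row took 3.76 to 3.80% of all FPKM in the low fraction and 17.4 to 17.5% in the high one, so the fold changes below were also computed on other scales. In these bulk samples, fewer cells of a type and less RNA per cell cannot be told apart.

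Promoter windows of 300 bases (250 before and 50 after the start site, from RefSeq on GRCm38.p6) were found for 35 of the 38 genes. Those of 5 genes are shown, 5′ to 3′, because the results below turn on them. Slc25a20 was the member called higher, Cpt2 is its partner in carnitine transport, Hadhb shares its promoter region with Hadha, Idh2 had the lowest fold change, and Pdhb moved with Pdha1. Capitals mark matches to 4 searched motifs on either strand.
Slc25a20 (chr9:108661886-108662185, strand +): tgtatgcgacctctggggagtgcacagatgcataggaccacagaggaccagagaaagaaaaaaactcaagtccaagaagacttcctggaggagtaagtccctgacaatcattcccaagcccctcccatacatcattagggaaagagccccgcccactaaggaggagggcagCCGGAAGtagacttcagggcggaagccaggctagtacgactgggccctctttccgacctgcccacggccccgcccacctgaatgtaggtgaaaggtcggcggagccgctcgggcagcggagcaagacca
Cpt2 (chr4:107923540-107923839, strand -): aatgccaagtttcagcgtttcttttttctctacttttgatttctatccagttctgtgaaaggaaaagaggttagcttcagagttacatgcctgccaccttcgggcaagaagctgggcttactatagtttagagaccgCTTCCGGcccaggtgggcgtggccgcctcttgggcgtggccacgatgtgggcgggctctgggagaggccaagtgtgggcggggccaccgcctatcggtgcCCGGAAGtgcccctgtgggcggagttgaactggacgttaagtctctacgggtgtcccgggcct
Hadhb (chr5:30155003-30155302, strand +): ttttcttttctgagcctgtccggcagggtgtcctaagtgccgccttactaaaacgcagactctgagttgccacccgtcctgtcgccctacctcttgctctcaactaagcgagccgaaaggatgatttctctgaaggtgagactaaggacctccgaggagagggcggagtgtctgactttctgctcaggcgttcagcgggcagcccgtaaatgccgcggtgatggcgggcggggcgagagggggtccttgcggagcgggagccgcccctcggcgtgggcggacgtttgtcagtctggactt
Idh2 (chr7:80115301-80115600, strand -): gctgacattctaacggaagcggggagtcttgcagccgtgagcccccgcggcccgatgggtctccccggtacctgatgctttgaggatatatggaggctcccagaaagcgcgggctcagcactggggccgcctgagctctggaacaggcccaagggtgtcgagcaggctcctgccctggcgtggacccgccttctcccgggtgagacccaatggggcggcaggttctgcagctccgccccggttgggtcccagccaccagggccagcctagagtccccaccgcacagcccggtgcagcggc
Pdhb (chr14:8172943-8173242, strand -): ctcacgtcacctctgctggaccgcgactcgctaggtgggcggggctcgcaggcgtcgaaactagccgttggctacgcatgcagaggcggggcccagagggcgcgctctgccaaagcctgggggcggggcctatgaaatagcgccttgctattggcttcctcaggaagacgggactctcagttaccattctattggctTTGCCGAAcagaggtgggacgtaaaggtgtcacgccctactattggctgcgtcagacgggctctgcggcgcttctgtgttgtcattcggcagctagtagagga

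The motif CCGGAAG, a core of sites bound by GABPA, occurred in windows of 6 members (Cpt2, Dlst, Idh3b, Idh3g, Mpc1 and Slc25a20). It lay in 8.86% of all 32851 windows and in 14.3% of the 42 windows of members. The C/EBP motif TTGCNNAA lay in windows of 5 members (Acads, Dld, Mpc2, Ogdh and Pdhb), that is in 14.3% of their windows against 10.8% of all. The NRF1 motif GCGCATGCG lay in windows of Acadm, Etfdh and Ogdh (9.52% of the windows of members and 1.75% of all). Ogdh has overlapping windows, so its NRF1 site and its C/EBP site are each counted more than once in these shares. The estrogen-related receptor motif TCAAGGTCA (0.423% of all windows) was in none of the 42. The GABPA match was carried by genes that were higher, lower or not called. No matches overlapped in the sequences shown.

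Most of the 37 members with a mean of at least 1 FPKM were lower in MHCII-hi. Transcripts of 25 were lower, 1 was higher and 11 did not pass the test (limma on log2(FPKM + 1), adjusted over all 12049 tested genes at 0.05). In the same comparison 40.5% of all tested genes were lower and 20.3% higher, so a fall was the more frequent call in general. The members' median log2 fold change (MHCII-hi minus MHCII-lo) was −0.26 and that of all tested genes −0.12. By non-overlap of the libraries, 26 members had all 3 MHCII-hi values below all 3 MHCII-lo values and 5 had them above, against 45.0% and 22.6% of all tested genes. Pcx, pyruvate carboxylase, was the member under the limit, at 0.973 ± 0.147 FPKM in the low fraction and 1.01 ± 0.154 in the high one.

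Under 5 other scalings, 19 of the 25 remained lower in each (24.6% of all tested genes were lower on all 6 scales). These were 7 of the TCA cycle (Cs, Idh2, Idh3b, Idh3g, Suclg2, Fh1 and Mdh1), 2 of pyruvate entry (Pdha1 and Pdhb) and 10 of fatty acid oxidation (Acadm, Acads, Hadha, Hadhb, Hadh, Echs1, Acaa2, Etfa, Etfb and Decr1). Slc25a20 remained higher on all of them, as did 16.9% of all tested genes. After median-ratio scaling, where the median gene stood at −0.01, 19 members were lower and 9 higher, against 25.9% and 28.2% of all tested genes. With each library set to its total without neutrophil genes, 19 were lower and 9 higher (24.6% and 29.2% of all). Quantile normalization gave 21 lower and 5 higher members (33.4% and 23.4%), and median centring 19 and 7 (30.5% and 24.9%). A fixed sum per library gave 30 and 1 (49.7% and 16.9%).

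**Figure D1:**
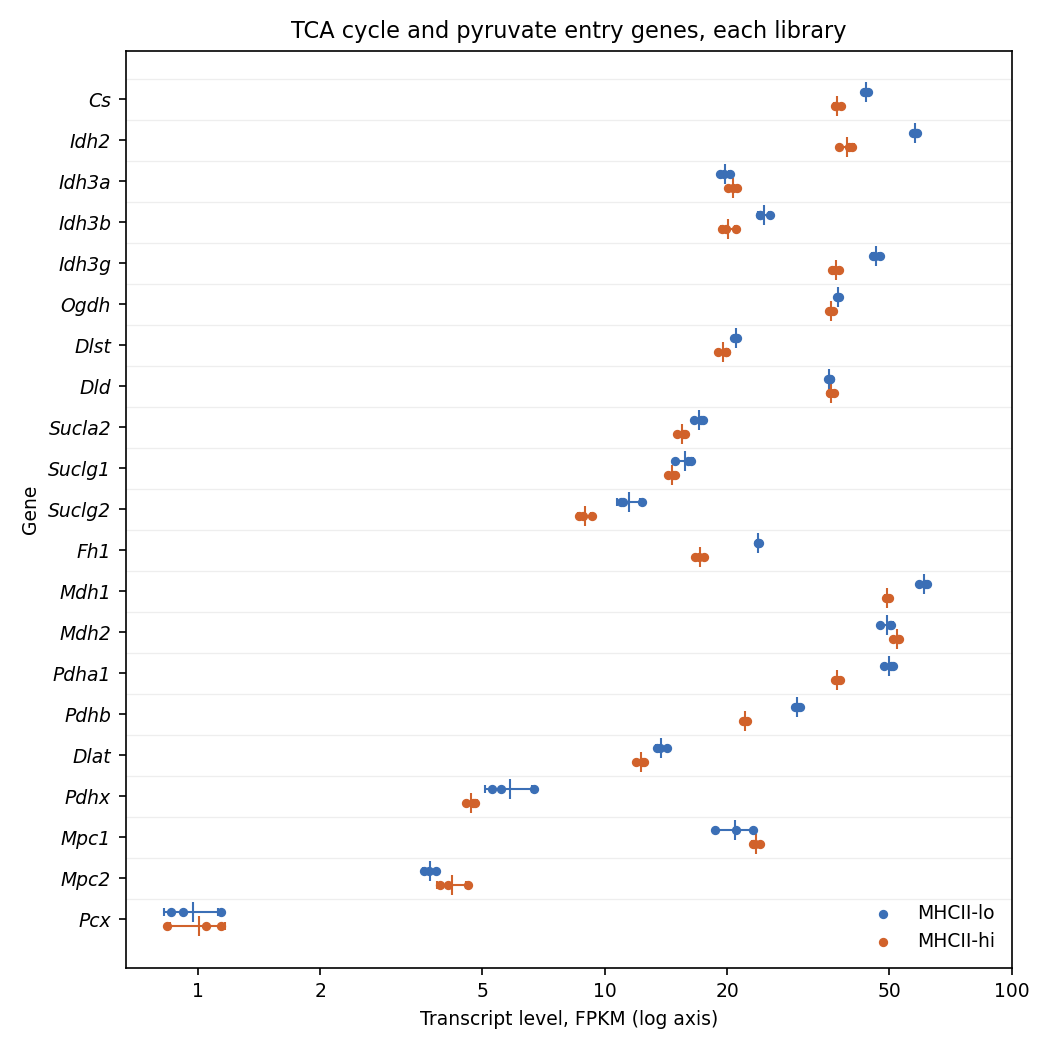
Transcript level in FPKM (log axis) of the 14 TCA cycle and 7 pyruvate entry genes, with 1 point per library, ticks for the mean and bars for the SD (n = 3 per group). The 3 MHCII-hi points of Idh2, Fh1, Pdha1 and Pdhb lie to the left of all MHCII-lo points, while Idh3a, Dld and Pcx overlap.

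The TCA cycle was lower by 13.2% in summed FPKM, from 462 to 469 over the low libraries to 401 to 406 over the high ones, and by 4.87% after median-ratio scaling. Of its 14 genes, 9 were lower, none was higher and 5 did not pass the test (40.5% of all tested genes were lower and 20.3% higher), with a median log2 fold change of −0.18. After median-ratio scaling 7 were lower and 4 higher (Idh3a, Ogdh, Dld and Mdh2), against 25.9% and 28.2% of all tested genes, so the share called higher was near that of all genes.

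Citrate synthase, encoded by Cs, opens the cycle by joining acetyl-CoA to oxaloacetate. Its transcript was at 44.4, 43.8 and 43.3 FPKM in the low libraries and at 36.9, 36.8 and 38.1 FPKM in the high ones. The groups did not overlap (log2 fold change −0.23, SE 0.0264, limma adjusted p 0.000333).

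Isocitrate is oxidised by an NADP-dependent and an NAD-dependent mitochondrial enzyme. Idh2 (chromosome 7, 80094846 to 80115392, GRCm38) encodes the NADP-dependent one. It measured 58.6, 58.2 and 57.3 FPKM in the low libraries and 37.6, 39.8 and 40.6 FPKM in the high ones, with no overlap. This was the lowest fold change of the members (−0.55, SE 0.0334, limma adjusted p 1.39e-05), a level 32.2% lower. The NAD-dependent enzyme is built from the catalytic subunit of Idh3a and the subunits of Idh3b and Idh3g. Idh3a stood at 20.3, 19.2 and 19.6 FPKM and, in MHCII-hi, at 21.1, 20.7 and 20.1 FPKM. The groups overlapped (0.06, 95% interval −0.02 to 0.14, limma adjusted p 0.145). Idh3b went from 25.5, 24.1 and 24.1 FPKM to 19.4, 19.9 and 21.0 FPKM, wholly lower in MHCII-hi (−0.28, limma adjusted p 0.000978). Idh3g went from 47.4, 45.6 and 46.1 FPKM to 36.8, 36.3 and 37.7 FPKM, again with no overlap (−0.32, limma adjusted p 8.34e-05). Exons of Idh3b overlap those of Nop56, a nucleolar gene on the opposite strand that was at 51.6 and 41.0 FPKM, and whether counting used strand is not stated.

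The oxoglutarate dehydrogenase complex, made by Ogdh, Dlst and Dld, had a summed level 2.75% lower in MHCII-hi as deposited and 6.56% higher after median-ratio scaling. Ogdh, its decarboxylase, was at 37.5, 37.3 and 37.7 FPKM in the low libraries and 35.9, 35.5 and 36.3 FPKM in the high ones. The values did not overlap, but the difference missed the threshold (−0.06, limma adjusted p 0.0643), and it was 0.07 after median-ratio scaling (adjusted p 0.0477). Dlst, the succinyltransferase, was lower by little (21.0 ± 0.168 to 19.5 ± 0.531 FPKM, −0.10, limma adjusted p 0.0326). That call was lost on leaving out any 1 library of MHCII-lo (limma adjusted p 0.0790, 0.0852 and 0.0612), or replicate 1 or 3 of MHCII-hi (0.0928 and 0.0502), and its sign turned after median-ratio scaling (0.03). Dld, the dihydrolipoyl dehydrogenase that the pyruvate dehydrogenase complex also uses, stood at 35.6 ± 0.303 and 36.0 ± 0.480 FPKM (limma adjusted p 0.602, 95% interval of the log2 fold change −0.04 to 0.07).

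Succinyl-CoA synthetase pairs the alpha subunit of Suclg1 with either the ATP-forming beta subunit of Sucla2 or the GTP-forming one of Suclg2. Suclg2 went from 11.1, 12.3 and 11.0 FPKM to 9.29, 8.66 and 8.82 FPKM (−0.33, limma adjusted p 0.00166). All MHCII-hi values lay below all MHCII-lo values. Sucla2 was also lower (17.1 ± 0.474 to 15.4 ± 0.348 FPKM, −0.14, limma adjusted p 0.0135), a call that was lost after median-ratio scaling (adjusted p 0.804). Suclg1 did not pass the test (15.7 ± 0.732 to 14.7 ± 0.286 FPKM, limma adjusted p 0.0882), but it was called lower when MHCII-lo replicate 1 was left out (limma adjusted p 0.0279). A processed pseudogene, Gm15163, matches the Suclg2 transcript at 98.9% identity over 1302 bases and was listed at 4.02 ± 0.278 and 3.33 ± 0.962 FPKM, so reads could be divided between them. Summed with it, Suclg2 was at 15.5 ± 0.953 and 12.2 ± 0.971 FPKM, still without overlap.

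Fumarase and malate dehydrogenase close the cycle. Fh1 (chromosome 1, 175600374 to 175625635) encodes fumarase and went from 24.0, 23.7 and 23.8 FPKM to 17.6, 16.7 and 17.03 FPKM. This was a level 28.2% lower with no overlap (−0.46, SE 0.0306, limma adjusted p 2.25e-05). The malate dehydrogenases differed by compartment. Mdh1, the cytosolic enzyme of the malate-aspartate shuttle, went from 61.0, 59.1 and 62.0 FPKM to 49.4, 49.0 and 50.05 FPKM (−0.29, limma adjusted p 9.73e-05). Mdh2, the mitochondrial enzyme of the cycle itself, was at 50.5, 50.1 and 47.5 FPKM in the low libraries and 52.5, 52.9 and 51.0 FPKM in the high ones. Its MHCII-hi values were the higher ones without overlap, but the difference missed the threshold as deposited (0.08, limma adjusted p 0.0719) and passed it after median-ratio scaling (0.21, adjusted p 0.00155).

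In pyruvate entry, Pdha1, Pdhb, Dlat and Pdhx of the pyruvate dehydrogenase complex were lower, and the carrier genes were not called as deposited. Dld, which this complex also uses and which is listed with the cycle, was not called. Of the 6 tested genes, 4 were lower and none was higher (40.5% and 20.3% of all tested genes), with a median of −0.21. After median-ratio scaling 2 were lower and 2 higher, against 25.9% and 28.2% of all tested genes. Pdha1 (chromosome X, 160122209 to 160138413) and Pdhb (chromosome 14, 8165996 to 8173025) encode the alpha and beta subunits of the decarboxylase. Pdha1 measured 48.6, 51.1 and 50.5 FPKM in the low libraries and 37.2, 37.8 and 36.7 FPKM in the high ones. Pdhb measured 29.9, 30.1 and 29.3 FPKM and then 22.4, 22.0 and 21.9 FPKM. Neither gene's groups overlapped, and the log2 fold changes were −0.42 and −0.41 (limma adjusted p 2.45e-05 and 1.99e-05).

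Dlat, the acetyltransferase at the core of that complex, was lower as well (13.8 ± 0.419 to 12.3 ± 0.295 FPKM, −0.16, limma adjusted p 0.00945). Its call was lost after median-ratio scaling (adjusted p 0.461). Pdhx, which tethers Dld to the core, went from 5.28, 5.55 and 6.72 FPKM to 4.55, 4.81 and 4.76 FPKM. Its groups did not overlap (−0.26, limma adjusted p 0.0290), but the call was lost on leaving out any 1 library of MHCII-hi (limma adjusted p 0.0798, 0.0567 and 0.0626) and after median-ratio scaling (0.164).

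Mpc1 and Mpc2 together form the pyruvate carrier. Mpc1 was at 18.7, 23.15 and 20.97 FPKM in the low libraries and at 23.17, 23.4 and 24.1 FPKM in the high ones. The low libraries spread widely, and their highest value lay just under the lowest MHCII-hi value. The difference did not pass the test (0.17, limma adjusted p 0.0791), but it did when MHCII-lo replicate 2 was left out (0.24, limma adjusted p 0.0129) and after median-ratio scaling (0.29, adjusted p 0.0122). Mpc2 was at 3.72 ± 0.136 and 4.22 ± 0.348 FPKM without overlap (limma adjusted p 0.0834, and 0.0138 after median-ratio scaling).

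**Figure D2:**
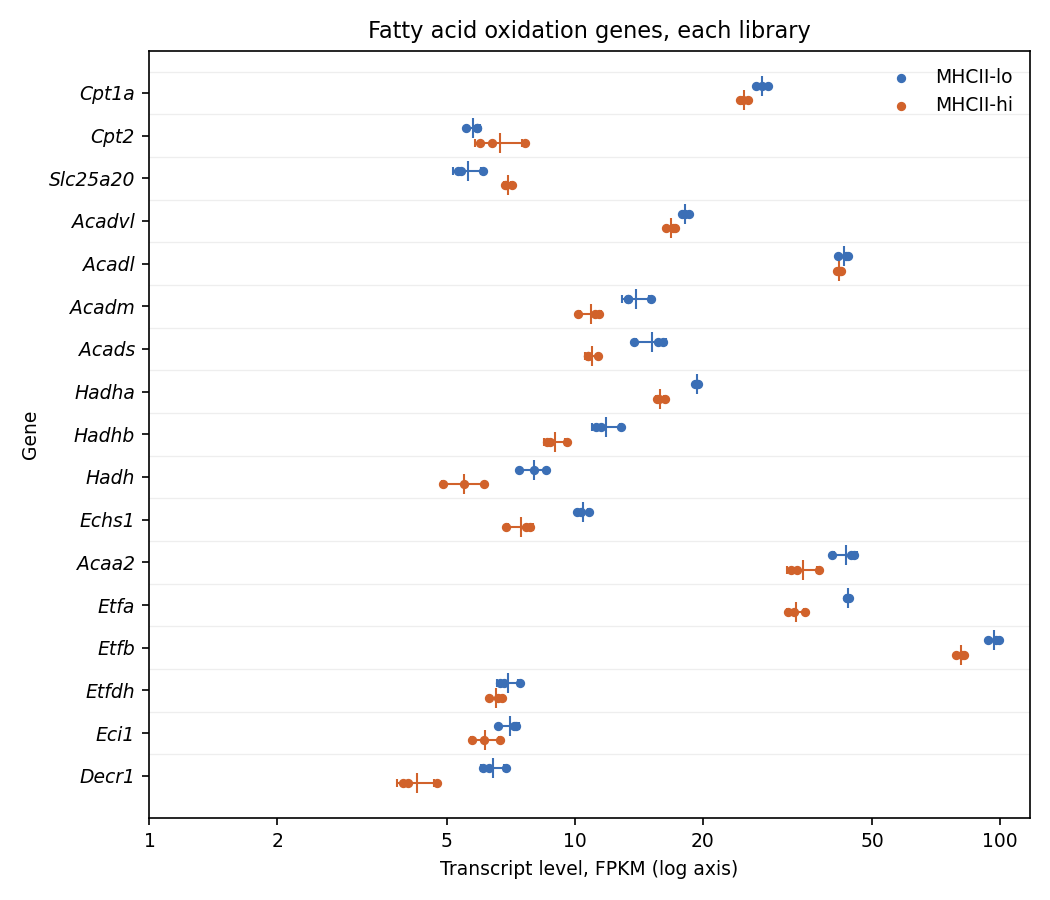
Transcript level in FPKM (log axis) of the 17 fatty acid oxidation genes, with 1 point per library, ticks for the mean and bars for the SD (n = 3 per group). MHCII-hi points lie to the left for the genes from Acadm to Etfb and for Decr1, and to the right for Slc25a20 and Cpt2.

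Fatty acid oxidation genes were lower by 15.97% in summed FPKM, from 375 to 391 over the low libraries to 314 to 331 over the high ones, and by 7.93% after median-ratio scaling. Of the 17 genes, 12 were lower, 1 was higher and 4 did not pass the test (40.5% of all tested genes were lower and 20.3% higher), with a median of −0.27. After median-ratio scaling 10 were lower and 3 higher (Cpt2, Slc25a20 and Acadl), against 25.9% and 28.2% of all tested genes. All 5 genes of the steps after the dehydrogenases were lower, by 22.4% in sum (15.0% after median-ratio scaling). The sum of the 3 carnitine entry genes was 0.899% lower as deposited and 8.59% higher after median-ratio scaling.

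Carnitine entry held the member called higher. Cpt1a, the rate-limiting carnitine palmitoyltransferase of the outer membrane, went from 27.6, 26.6 and 28.5 FPKM to 25.6, 24.5 and 24.8 FPKM. The groups did not overlap (−0.14, limma adjusted p 0.0122), and the call was lost after median-ratio scaling (−0.01, adjusted p 0.816). Slc25a20 (chromosome 9, 108662088 to 108684641) encodes the carrier that exchanges acylcarnitine for carnitine across the inner membrane. It rose from 5.40, 5.31 and 6.10 FPKM to 6.91, 7.11 and 6.87 FPKM. All MHCII-hi values were above all MHCII-lo values (0.27, SE 0.0556, limma adjusted p 0.00492), a level 24.3% higher. Cpt2, which frees the acyl-CoA inside, was at 5.54, 5.88 and 5.90 FPKM in the low libraries and 6.40, 5.98 and 7.62 FPKM in the high ones. Its groups did not overlap either, and the difference missed the threshold (0.17, limma adjusted p 0.102). It passed when MHCII-hi replicate 2 was left out (0.24, limma adjusted p 0.0410) and after median-ratio scaling (0.29, adjusted p 0.0223).

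The acyl-CoA dehydrogenases take the opening step of each round and differ in the chain length they prefer. Acadvl, for very long chains, was at 18.2 ± 0.340 and 16.9 ± 0.447 FPKM (−0.11, limma adjusted p 0.0307). Its call was lost on leaving out replicate 1 or 2 of MHCII-lo (limma adjusted p 0.0679 and 0.0919) or replicate 2 or 3 of MHCII-hi (0.0891 and 0.0540), and its sign turned after median-ratio scaling (0.02). Acadl, for long chains, stood at 41.6, 43.9 and 43.3 FPKM in the low libraries and 42.3, 41.3 and 42.1 FPKM in the high ones. These overlapped (−0.03, limma adjusted p 0.339, 95% interval −0.10 to 0.03), and after median-ratio scaling the difference was 0.09 (adjusted p 0.0311). Acadm, for medium chains, went from 15.1, 13.4 and 13.4 FPKM to 11.2, 10.2 and 11.4 FPKM. Acads, for short chains, went from 13.8, 15.7 and 16.1 FPKM to 11.4, 10.7 and 10.8 FPKM. Both were wholly lower in MHCII-hi (−0.33 and −0.43, limma adjusted p 0.00365 and 0.000862).

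Hydration, the second oxidation and thiolysis follow. Hadha (chromosome 5, 30118304 to 30155162) and Hadhb (chromosome 5, 30155248 to 30184593) encode the subunits of the trifunctional protein, which carries out these steps on long chains. The genes are transcribed away from each other, with RefSeq start sites 273 bases apart. Hadha went from 19.4, 19.5 and 19.2 FPKM to 15.8, 15.6 and 16.3 FPKM, and Hadhb from 11.2, 11.6 and 12.9 FPKM to 8.75, 8.60 and 9.57 FPKM. Both were lower with no overlap (−0.27 and −0.37, limma adjusted p 0.000303 and 0.00211). The value of Hadhb is uncertain, since the processed pseudogene Hadhb-ps matches its transcript at 99.8% identity over 1428 bases. Hadhb-ps was listed at 16.7, 17.1 and 15.9 FPKM in the low libraries and 16.1, 16.2 and 11.4 FPKM in the high ones, above Hadhb itself. Together with its 2 pseudogenes, Hadhb was at 28.9 ± 0.480 and 24.0 ± 2.28 FPKM, still without overlap.

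Hadh, Echs1 and Acaa2 act on shorter chains. Hadh, the hydroxyacyl-CoA dehydrogenase, went from 8.03, 8.57 and 7.41 FPKM to 6.12, 5.48 and 4.89 FPKM, a level 31.3% lower (−0.47, limma adjusted p 0.00223). Echs1, the short-chain enoyl-CoA hydratase, went from 10.4, 10.1 and 10.8 FPKM to 7.69, 7.86 and 6.91 FPKM, a level 28.2% lower (−0.43, limma adjusted p 0.000473). Acaa2, the thiolase, went from 40.4, 44.6 and 45.4 FPKM to 37.6, 32.2 and 33.4 FPKM (−0.33, limma adjusted p 0.00498). The fractions overlapped in none of these genes.

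Electrons from the dehydrogenases pass to the electron transfer flavoprotein, the product of Etfa and Etfb. Etfb was the most abundant of the 38 transcripts in both fractions, at 93.7, 97.8 and 99.3 FPKM in the low libraries and 82.1, 78.9 and 81.3 FPKM in the high ones. Etfa went from 44.2, 43.7 and 43.7 FPKM to 34.8, 32.8 and 31.7 FPKM. Both were wholly lower in MHCII-hi (−0.26 for Etfb and −0.40 for Etfa, limma adjusted p 0.000286 and 0.000112). Etfdh, which moves these electrons on to ubiquinone, was at 6.97 ± 0.404 and 6.54 ± 0.247 FPKM and overlapped (limma adjusted p 0.227).

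Unsaturated fatty acids need auxiliary enzymes. Decr1 (chromosome 4, 15917240 to 15945507), the dienoyl-CoA reductase, went from 6.09, 6.30 and 6.88 FPKM to 4.06, 3.94 and 4.74 FPKM, without overlap. Its level was 33.9% lower (−0.50, SE 0.0730, limma adjusted p 0.000991), the lowest ratio of mean FPKM among the tested members. Eci1, the enoyl-CoA isomerase, overlapped and missed the threshold (7.03 ± 0.373 to 6.16 ± 0.472 FPKM, limma adjusted p 0.0555). On leaving out replicate 1 of either fraction it was called lower (limma adjusted p 0.0439 without that of MHCII-lo and 0.0253 without that of MHCII-hi).

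**Figure D3:**
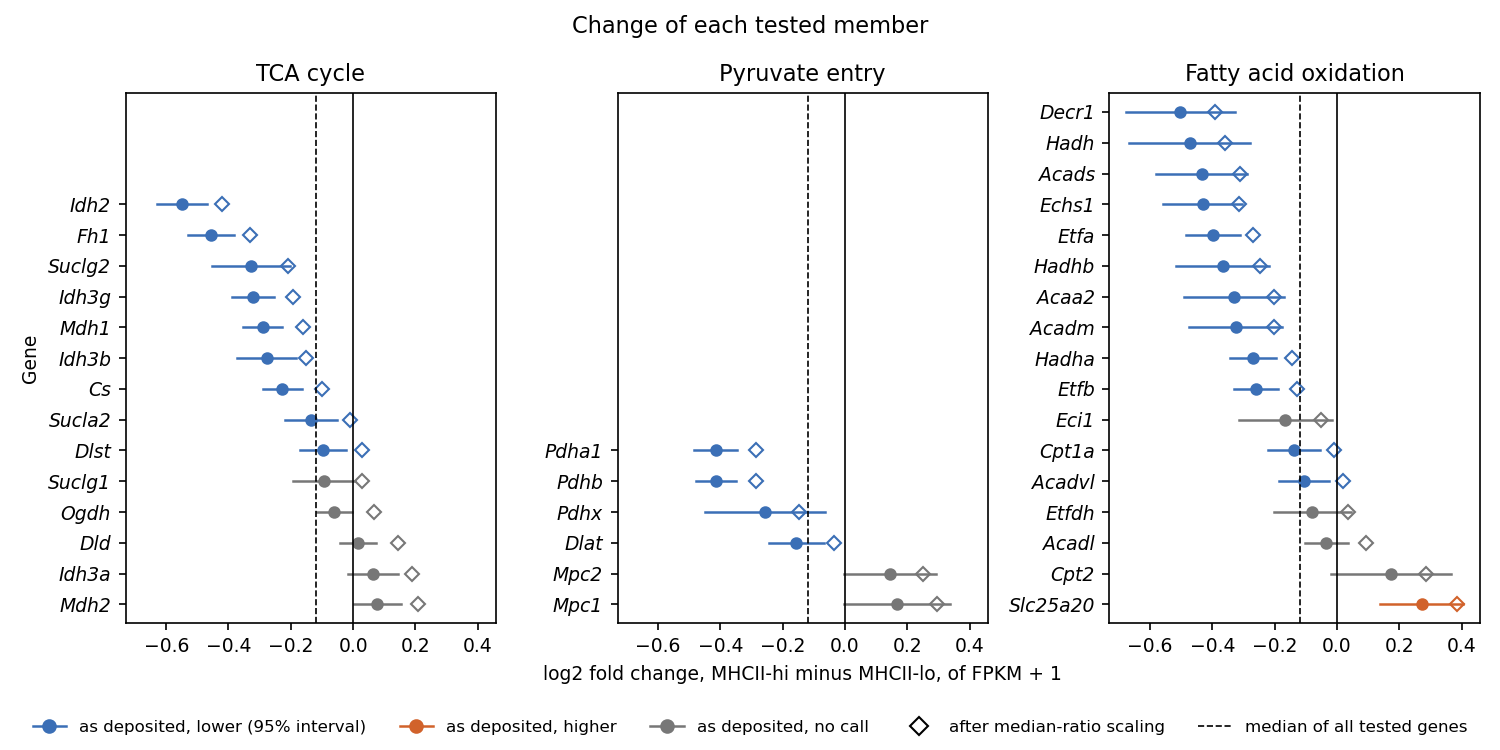
log2 fold change (MHCII-hi minus MHCII-lo, of FPKM + 1) of the 37 tested members in 3 panels, with 95% intervals as lines, colour for the call as deposited and open diamonds after median-ratio scaling. The dashed line is the median of all tested genes at −0.12. Fold changes run from −0.55 for Idh2 to 0.27 for Slc25a20.

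Set side by side, 64.3% of the 14 TCA cycle genes and 70.6% of the 17 fatty acid oxidation genes were lower, against 40.5% of all tested genes. After median-ratio scaling these shares were 50% and 58.8%, against 25.9%. Their medians as deposited were −0.06 and −0.15 relative to the median tested gene, and the difference between pathways was not tested. Fold changes ran from −0.55 to 0.08 in the cycle and from −0.50 to 0.27 in fatty acid oxidation.

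**Figure D4:**
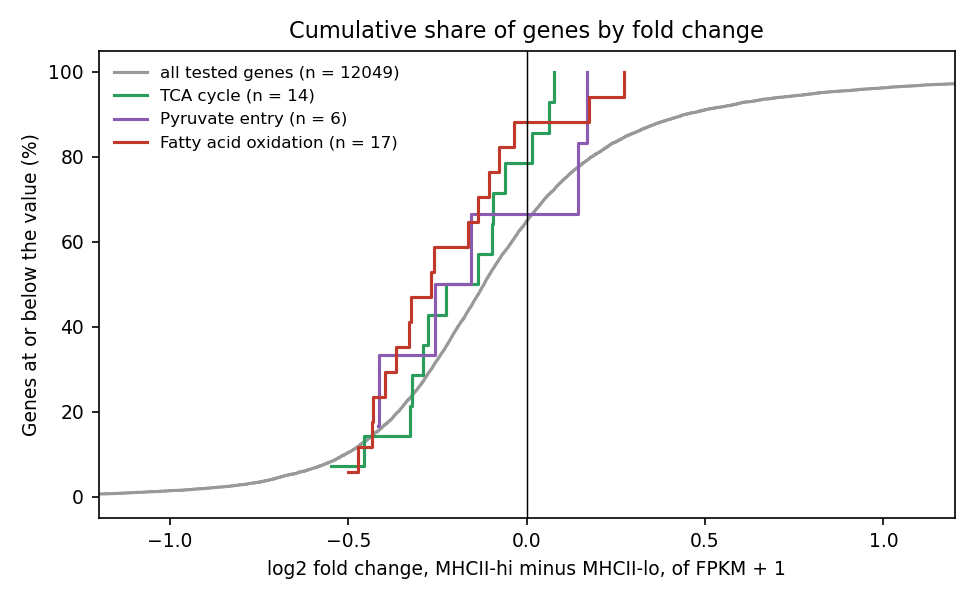
Share of genes (%) at or below each log2 fold change (MHCII-hi minus MHCII-lo, of FPKM + 1) for the 14 TCA cycle, 6 pyruvate entry and 17 fatty acid oxidation genes and for all 12049 tested genes in grey, whose tails run past the axis. The coloured lines rise mostly to the left of the grey line below 0, and all of their genes lie between −0.55 and 0.27.

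Ratios of partner genes within a library do not depend on a factor applied to that whole library, apart from the pseudocount. They were not recomputed after quantile normalization, which applies no such common factor. Of 14 pairs compared, 8 had ratios that did not overlap between the fractions. Pairs of other genes were not compared, Acadm is in 3 of the pairs and Idh3a in 2, and the libraries of most single genes do not overlap either. With 3 libraries against 3, the exact permutation test (two-sided) cannot give a p below 0.1, and these 8 reached it (0.175 adjusted over the 14 pairs), so none passes 0.05. The log2 ratio of Idh3b to Idh3a was 0.32, 0.31 and 0.28 in the low libraries and −0.11, −0.05 and 0.06 in the high ones. That of Idh3g to Idh3a was 1.19, 1.21 and 1.19 and then 0.77, 0.78 and 0.87. Both ratios were lower in every MHCII-hi library.

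Mdh1 and Mdh2 changed order. Their log2 ratio was 0.27, 0.23 and 0.38 in the low libraries, with the cytosolic transcript above the mitochondrial one, and −0.09, −0.11 and −0.03 in the high ones. Cpt1a to Cpt2 was at 2.13, 2.01 and 2.10 and then 1.84, 1.87 and 1.58. The other 4 without overlap were Suclg2 to Sucla2 (a difference of −0.19), Etfa to Etfb (−0.14), Acadl to Acadm (0.29) and Acadvl to Acadm (0.22).

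The other pairs overlapped. Pdhb to Pdha1 differed by 0.002 between the means (exact permutation p 1). Hadha to Hadhb differed by 0.10 (exact permutation p 0.2). Mpc1 to Mpc2 differed by 0.02, Dlst to Ogdh by −0.04, Pdhx to Dlat by −0.10 and Acads to Acadm by −0.11.

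**Figure D5:**
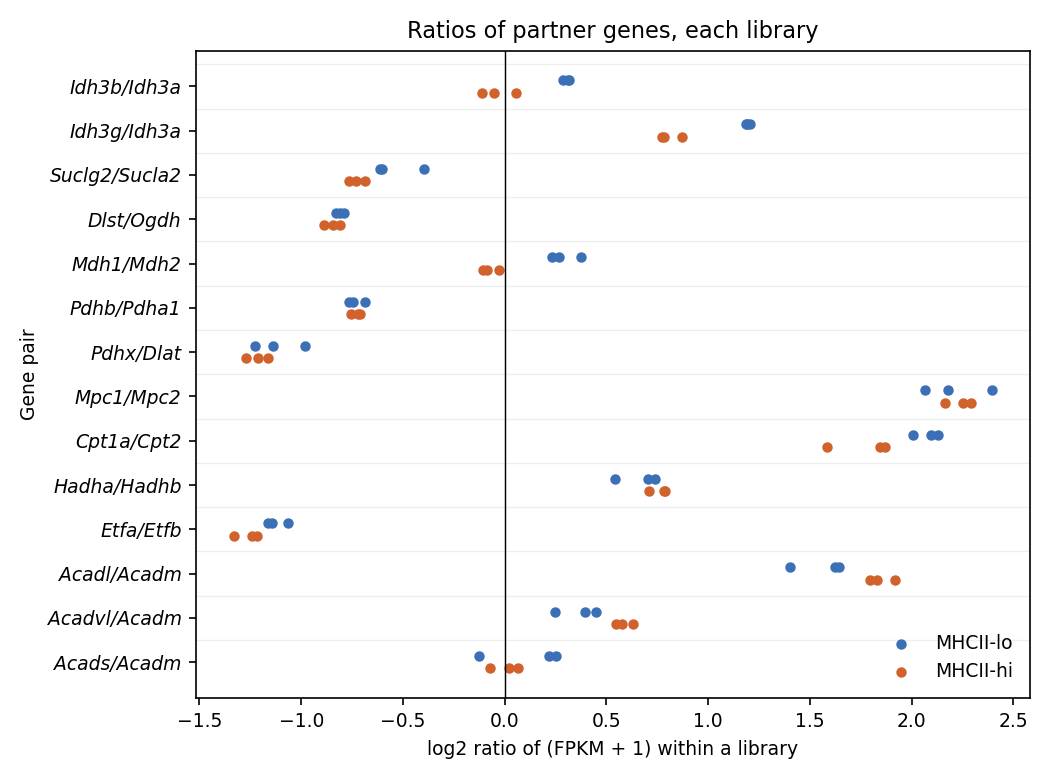
log2 ratio of (FPKM + 1) of 14 gene pairs in each library, with 1 point per library and colour for the fraction. Points of the fractions lie apart for Idh3b/Idh3a, Idh3g/Idh3a, Mdh1/Mdh2 and Cpt1a/Cpt2 and lie together for Pdhb/Pdha1.

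Genes around these pathways, listed by function, gave 57 tested genes of 75 with a row. Of these, 28 (49.1%) were lower and 10 (17.5%) higher, against the 40.5% and 20.3% of all tested genes, with a median of −0.18. Among 19 tested neighbours of the cycle, 12 (63.2%) were lower and 3 (15.8%) higher. Sdhb (27.5 ± 0.378 to 21.4 ± 0.229 FPKM, limma adjusted p 5.06e-05) and Sdhc (22.5 ± 0.465 to 17.8 ± 0.418 FPKM, limma adjusted p 0.000161) of succinate dehydrogenase were lower. Pck2, the mitochondrial phosphoenolpyruvate carboxykinase, went from 8.91 ± 0.101 to 5.85 ± 0.297 FPKM. Got1, the cytosolic aspartate aminotransferase, rose from 9.69 to 10.4 FPKM over the low libraries to 18.4 to 19.7 over the high ones (0.84, limma adjusted p 5.50e-06). Got2, the mitochondrial one, went from 35.1 ± 1.09 to 40.9 ± 0.312 FPKM, and Slc25a11, the malate-oxoglutarate carrier, from 27.8 ± 1.75 to 32.6 ± 1.09 FPKM. The aspartate-glutamate carriers were not called (Slc25a12 11.1 ± 0.481 to 11.3 ± 0.708 FPKM, limma adjusted p 0.765; Slc25a13 6.12 ± 0.648 to 5.25 ± 0.260 FPKM, limma adjusted p 0.0656).

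Of 7 tested genes listed around the control of pyruvate dehydrogenase, 2 (28.6%) were higher and 3 (42.9%) lower. Of all tested genes, 20.3% were higher and 40.5% lower, so these shares were not far from the general ones. Pdk3, a kinase that inhibits the complex, rose from 16.9 ± 0.245 to 20.1 ± 0.0896 FPKM (limma adjusted p 0.000376), and Pdpr, a regulatory subunit of its phosphatase, from 4.53 ± 0.427 to 5.33 ± 0.296 FPKM (limma adjusted p 0.0459). The call of Pdpr was lost with no filter on low values (0.104), at a fixed sum per library (0.132), on leaving out replicate 2 or 3 of MHCII-lo (0.113 and 0.0757) and on leaving out any 1 library of MHCII-hi (0.0751, 0.0654 and 0.133). Pdp1 (2.59 ± 0.398 to 1.72 ± 0.114 FPKM) and Pdp2 (1.73 ± 0.234 to 1.08 ± 0.127 FPKM), catalytic subunits of the phosphatase that reactivates it, were lower. The kinase Pdk1 was lower as well (7.85 ± 0.243 to 7.08 ± 0.290 FPKM), a call lost after median-ratio scaling (adjusted p 0.788) and on leaving out replicate 1 or 2 of MHCII-lo (0.108 and 0.0938) or replicate 1 or 3 of MHCII-hi (0.106 and 0.0961). Pdk4 stayed under 1 FPKM in all 6 libraries.

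Of 20 tested neighbours in fatty acid metabolism, 4 (20%) were higher and 7 (35.0%) lower, about the shares of all tested genes. Acsl1, which activates long-chain fatty acids, rose from 13.3 ± 0.457 to 18.4 ± 0.401 FPKM (0.44, limma adjusted p 6.97e-05). Acad11 (2.16 ± 0.0802 to 3.41 ± 0.178 FPKM), Acox3 of peroxisomal oxidation (5.15 ± 0.213 to 6.48 ± 0.1501 FPKM) and Crat, carnitine acetyltransferase (4.69 ± 0.434 to 5.85 ± 0.430 FPKM), rose as well. The call of Crat was lost on leaving out replicate 2 or 3 of MHCII-lo (limma adjusted p 0.0549 and 0.0550) or replicate 2 of MHCII-hi (0.0536). Acat1, a mitochondrial thiolase, fell from 24.5 ± 0.328 to 17.7 ± 0.470 FPKM and Acsl5 from 38.8 ± 0.969 to 31.4 ± 0.295 FPKM. Hsd17b4, the peroxisomal bifunctional enzyme, fell from 20.1 ± 1.52 to 14.3 ± 1.10 FPKM, and Slc22a5, the carnitine importer of the cell membrane, from 5.24 ± 0.189 to 3.997 ± 0.181 FPKM.

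Of 11 tested regulators of mitochondrial genes, 6 (54.5%) were lower and 1 (9.09%) higher as deposited, against 40.5% and 20.3% of all tested genes. After median-ratio scaling 4 were lower and 2 higher, against 25.9% and 28.2% of all tested genes. Tfam, which maintains mitochondrial DNA, fell from 9.56 ± 0.260 to 6.94 ± 0.320 FPKM (limma adjusted p 0.000246). Lpin1 (2.14 ± 0.220 to 0.927 ± 0.0493 FPKM), Pprc1 (6.44 ± 0.346 to 4.82 ± 0.416 FPKM) and Rxra (2.93 ± 0.197 to 2.19 ± 0.142 FPKM) were also lower. Prkaa1, a catalytic subunit of the energy sensor AMPK, rose from 11.5 ± 0.347 to 14.003 ± 0.199 FPKM (limma adjusted p 0.000728). The coactivator Ppargc1a stayed under 1 FPKM in all 6 libraries.

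Markers of other cell types moved in the same comparison, and their part in the members' differences was not tested. The counts below stand beside 40.5% of all tested genes lower and 20.3% higher, so those from few genes say little about a cell type. Of the 28 neutrophil markers 27 were higher and 1 lower, with summed FPKM of 12340 to 12453 in the low libraries and 59832 to 60520 in the high ones. Erythroid markers were lower in 14 of 15 tested genes (summed 616 to 627 against 387 to 404 FPKM, with Tmod1 under 1 FPKM in all libraries). All 10 monocyte markers (3702 to 3752 against 2769 to 2782 FPKM) and all 8 tested dendritic cell markers (316 to 323 against 168 to 173 FPKM) were lower. Lyz2 is on both the neutrophil and the monocyte list and was the neutrophil marker called lower. It made up most of the monocyte sums, at 2599.5 ± 14.7 FPKM in the low fraction and 2125.3 ± 18.3 in the high one. Of the dendritic markers Zbtb46, Xcr1 and Batf3 stayed under 1 FPKM. Of 7 tested markers of mast cells and basophils, 5 were lower and 1 higher (854 to 882 against 416 to 425 FPKM, with Cma1 and Tpsb2 under 1). T and NK cell markers were lower in 4 of 7 (204 to 208 against 161 to 169 FPKM, with Cd3e and Cd4 under 1). The 4 were Nkg7, Klrb1c, Gzma and Ccl5, and Nkg7 made up most of the sums (154 to 164 FPKM in the low libraries). The T cell genes Cd3d, Cd3g and Cd8a were not called (limma adjusted p 0.340, 0.0824 and 0.435). Plasma cell markers were higher in 3 of 7 (253 to 256 against 319.9 to 328 FPKM). B cell markers had 2 tested genes of 12, of which 1 was higher (14.9 to 17.4 against 17.2 to 18.4 FPKM), and Pax5, Ebf1, Ms4a1 and 5 others stayed under 1 FPKM. Hlf, of the genes that define stem cells, went from 0.827 ± 0.233 to 1.75 ± 0.186 FPKM (limma adjusted p 0.00419).

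Exons of 8 members overlap a gene on the opposite strand in GENCODE. Besides Idh3b, the partners at 1 FPKM or more in both fractions were 4930579G24Rik for Etfdh (9.55 and 6.97 FPKM), Paox for Echs1 (4.87 and 4.05 FPKM), Map3k15 for Pdha1 (4.53 and 6.35 FPKM) and Dvl2 for Acadvl (3.64 and 2.20 FPKM). On the same strand, exons of Etfb overlap those of Gm45233 and Mir7051. A transcript of Gm45233 matches that of Etfb at 99.7% identity over 626 bases, and Gm45233 has no row of its own. The share of all these genes in the members' values was not tested.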

How the data were processed

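RNA was sequenced from sorted marrow cells, with 3 libraries per fraction. Per the labels' protocols, RNA came from a QIAGEN micro kit and libraries from an Illumina kit that keeps strand. Per the submitters' processing notes, fastp, HISAT2 and StringTie were used with GRCm38 (mm10). No source used here gives their versions or the strand setting. The authors deposited 1 table per library with 1 value per gene, inferred to be FPKM from unequal sums and StringTie's output. No step of 1 fragment was found in low values (mean cosine 0.0518 to 0.0780), so depth is unknown and no counting interval is given.

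Genes whose mean reached 1 FPKM were compared as log2(FPKM + 1) with limma 3.58.1 in R 4.3.3 (intensity trend, group as the only term, Benjamini-Hochberg adjustment at 0.05). The fit was first tested on simulated data in which few genes changed and composition did not shift. That test therefore does not bear on the choice between scalings. A fold change of log2(FPKM + 1) understates that of low genes. Of 30803 rows, 70 repeat a symbol, none of them a member. Partner ratios used scipy 1.17.1. Coordinates are from GENCODE M21 (GRCm38), and near-identical transcripts (at least 95% over 300 bases) were found with blastn. The members, the gene lists and the pairs were chosen with earlier results of these data known. All members are named, and of neighbouring lists up to 4 called genes per direction with the smallest p, apart from a result that is not reported here. Pdk4, Ppargc1a, Slc25a12 and Slc25a13, outside that rule, and the other scales for summed levels were chosen after their values were seen. Other pseudocounts, filters, scalings, a fit without trend, a replicate block and leaving out each library were tried.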

Additional observations from a re-analysis of the deposited data

How the results depend on the processing

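Of the 25 members called lower, 19 kept direction and call under every alternative run, as did Slc25a20, the 1 called higher. None of the 11 without a call did so under all of them. The matching share of all tested genes is known only for the values as deposited together with the 5 other scalings (24.6% lower and 16.9% higher in each). It was not computed over every run, so the members' 19 cannot be set against a general share. Pseudocounts of 0.1 and 5 changed no member's call. Scaling changed most. Members called higher in the TCA cycle were 0 as deposited, 4 after median-ratio scaling, 1 after quantile normalization, 3 after median centring and 4 with the total without neutrophil genes. In pyruvate entry they were 0 as deposited and 2 under each of these 4, and 0 to 1 without single libraries (1 without MHCII-lo replicate 2). In fatty acid oxidation they were 1 as deposited and 3, 2, 2 and 3 in the same order, and 1 to 2 without single libraries (2 without MHCII-hi replicate 2). Of all tested genes, 20.3% were higher as deposited and 28.2%, 23.4%, 24.9% and 29.2% in that order. Without single libraries, 2236 to 2268 of the 12049 tested genes were higher. Pyruvate entry genes called lower went from 4 to 2 after median-ratio scaling, median centring or with the total without neutrophil genes. All tested genes called lower went from 4883 (40.5%) to 3123 (25.9%) after median-ratio scaling and 3672 (30.5%) after median centring. With the total without neutrophil genes they were 2970 (24.6%).

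Medians of log2 fold changes moved with scaling. For the TCA cycle (−0.181) the median was −0.055 after median-ratio scaling, −0.144 after quantile normalization, −0.108 after median centring, −0.042 with the total without neutrophil genes, −0.26 at a fixed sum per library and −0.159 with a pseudocount of 5. For pyruvate entry (−0.207) it was −0.091, −0.152, −0.134, −0.079, −0.298 and −0.14 in the same order, and −0.24 to −0.152 without single libraries (the latter without MHCII-lo replicate 3). For fatty acid oxidation (−0.269) it was −0.145 after median-ratio scaling, −0.196 after median centring, −0.132 with the total without neutrophil genes and −0.353 at a fixed sum. For all tested genes (−0.12) it was −0.011, −0.066, −0.046, 0.001, −0.206 and −0.072 in the order given for the cycle, −0.142 with a pseudocount of 0.1, −0.015 without a filter and −0.125 at a mean of at least 5.

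Signs turned in small differences. After median-ratio scaling, Ogdh was at 0.068, Dlst at 0.029, Suclg1 at 0.029, Acadvl at 0.020, Acadl at 0.094 and Etfdh at 0.036. With the total without neutrophil genes, Ogdh was at 0.081, Dlst 0.042, Sucla2 0.001, Suclg1 0.042, Cpt1a 0.002, Acadvl 0.032, Acadl 0.107 and Etfdh 0.048. After median centring, Ogdh was at 0.013 and Acadl at 0.039. The summed change of the oxoglutarate dehydrogenase genes was 6.56% after median-ratio scaling and 7.54% with the total without neutrophil genes, and that of the carnitine entry genes 8.59% and 9.59%. At a fixed sum, Idh3a was at −0.008 and Dld at −0.058. The difference of the Pdhb to Pdha1 ratio (0.002) was −0.004 with a pseudocount of 0.1 and −0.015 to 0.025 without single libraries, and that of Mpc1 to Mpc2 (0.023) was −0.001 and −0.05 to 0.114. The replicate block ended the calls of Dlst (adjusted p 0.0654) and Acadvl (0.0737) and changed no other member's call. Deviations of same-numbered libraries correlated at −0.042 to −0.040. Whether the numbers pair the libraries stays unknown, since a mostly technical spread would hide shared mice. Without read counts, no difference can be judged against counting error, and 3 libraries per group limit the partner ratios to an exact p of 0.1.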
